A study of Mus musculus with 8 samples.

Results

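Cyclins and cyclin-dependent kinases (CDKs) were followed through 4 stages of mouse spermatogenesis. Spermatogonia of type A and of type B still divide by mitosis, pachytene spermatocytes pair their chromosomes in meiotic prophase, and round spermatids have completed meiosis. Each stage was measured on 2 oligonucleotide arrays (Mouse 430 2.0), with total RNA from a separate germ cell preparation on each array per the series' design text. All 8 preparations came from mice of the BL/6-129 strain, and no label names a mutation or a treatment. Neither the age of the mice nor the purification of the cells is given in the sources used here. The members were the probe sets annotated to exactly 1 gene whose current symbol is Ccn with a letter and at most 1 digit, or Cdk with a number. There were 109 such probe sets among 45101 on the array, and they covered 42 of 18193 genes, namely 24 cyclins and 18 CDKs. Each gene was represented by the probe set with the highest mean log2 signal. Of these 42 genes, 40 were tested, since Cdk3 and Cdk18 lay under the median of the array on all 8 arrays. Ccnb1 and Cdk15 were not analysed here, as no probe set was annotated to either of them alone.

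A CDK is a protein kinase that as a rule works only when a cyclin is bound to it, and cyclins are made and destroyed in turn through the cell cycle. D cyclins with Cdk4 or Cdk6 start the cycle, E cyclins with Cdk2 open DNA replication, and A and B cyclins with Cdk2 or Cdk1 carry the cell through replication and division. Other members act outside the cell cycle, on RNA polymerase II or on splicing. In the testis, spermatogonia divide by mitosis, while spermatocytes replicate once and then halt in a long prophase before dividing.

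Values are MAS5 signals on a linear scale, which the authors had scaled to an equal average on each array. The arrays of pachytene cells and spermatids had median signals of 33.7 to 37.3, against 41.5 to 51.9 in spermatogonia. A change is given as the difference of log2(signal + 16) ± its standard error, with n = 2 arrays against 2. It was called at a Benjamini-Hochberg adjusted p under 0.05 from limma, adjusted over all 14145 genes tested. The standard error and the p rest on 1 spread per gene, which limma took over all 8 arrays and drew toward that of other genes. They are therefore not the spread of the compared arrays alone, and the spread between the type B arrays also enters comparisons without type B. Where a gene lay under the array median in a stage, the size of its change depends on the added 16, which holds it down. The replicates of type B stood apart, since the SD of their log2 difference over genes was 0.751, against 0.429 between the type A arrays, 0.338 between the pachytene arrays and 0.335 between the spermatid arrays. In type B replicate 2 the summed signal of 6 pachytene marker genes was 7606, against 529 in type B replicate 1, 409.5 to 495 in type A, and 14067 to 15084 in pachytene cells. In spermatids that sum was 19079 to 19160, so these markers do not set pachytene cells apart from spermatids. Among them Ldhc alone gave 4896 in type B replicate 2, against 5975 and 6563 in pachytene cells. Piwil1 gave 252 there, against 1791.5 and 1621 in pachytene cells. All 6 markers of spermatids were measured, and their sum was 1506 in type B replicate 2, against 137 in replicate 1 and 2850 to 24013 on the later arrays. All 7 spermatogonial markers were measured, and all 7 were lower in pachytene cells than in type A cells.

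Somatic markers moved with the stages as well. All 5 peritubular and stromal markers were measured, and their summed signal was 7473 to 9830 in type A, 10355 to 10474 in type B, 649 to 836 in pachytene cells and 706 to 839 in spermatids. Their collagen Col1a1 was close to 0 in pachytene cells, at 2.1 and 5.4. All 6 Sertoli cell markers were measured, with sums of 4081 to 5464 in type A, 3518 to 4184 in type B, 2425 to 3275 in pachytene cells and 570 to 731 in spermatids. In these sums Clu alone gave 2983 to 3839 in type A and 2035 to 2832 in pachytene cells. Of the 6, 4 were called lower and 0 higher in pachytene against type A cells, where 35.4% and 27.1% of all genes were. Of 5 Leydig cell markers 4 were measured, with sums of 631 to 1497 in spermatogonia, 517 to 945 in pachytene cells and 88.5 to 88.8 in spermatids. The stromal and Sertoli sums were lower on every later array than on any spermatogonial one, while the Leydig sums of pachytene and type A cells overlapped. The 5 macrophage and blood markers summed to 331 to 481 in spermatogonia, 166 to 188 in pachytene cells and 311 to 332 in spermatids. The part of these cells in the values of the cyclins and CDKs was not tested. In preparations of many cells, fewer cells that express a gene and less RNA per cell cannot be told apart.

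Between spermatogonia and pachytene cells, more members fell than rose as the authors scaled the arrays, and so did more of all genes. Ribosomal centring turned both balances round. In pachytene against type A cells 10 of the 40 members were higher, where 27.1% of all genes were, and 18 were lower, where 35.4% of all genes were. The median change of the members was -0.33 log2, beside -0.14 over all genes. In pachytene against type B cells 9 members were higher (25.4% of all genes) and 15 lower (32.3% of all genes), with a median of -0.32, beside -0.07 over all genes. These 2 comparisons share the pachytene arrays. With arrays centred on the 75th percentile, the split in pachytene against type A cells was 13 higher and 15 lower, where 37.3% and 26.1% of all genes were. With quantile normalization it was 9 higher and 18 lower, where 31.2% and 30% of all genes were. With arrays centred on 38 autosomal ribosomal protein genes, which raised the median of all genes by 0.79 against type A and 1.07 against type B, the splits turned round to 17 higher and 10 lower, and to 18 higher and 7 lower. All genes then had 46.1% higher and 15.4% lower against type A, and 56.9% higher and 10.1% lower against type B. The members that then lost a call as lower were Ccnb3, Ccnf, Ccnl2, Ccnt1, Ccnt2, Cdk5, Cdk6 and Cdk9 against type A, and Ccnd3, Ccnf, Ccnj, Ccnl1, Ccnt1, Cdk4, Cdk5 and Cdk9 against type B. Without pachytene replicate 2, which leaves 1 pachytene array, fewer members were called higher against type A, and so were fewer of all genes.

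In round spermatids against pachytene cells, 9 members were higher (15.7% of all genes) and 12 lower (19.0% of all genes), with a median of -0.11, beside -0.06 over all genes. All 9 that rose were cyclins, of 24 tested, and 4 cyclins fell. Of the 16 CDKs tested, 8 fell and limma called 0 higher, also 0 at an unadjusted p under 0.05, although other probe sets of Cdk14 and Cdk16 rose. Leaving out any 1 of the 4 pachytene and spermatid arrays leaves 1 array in that stage. Fewer members, and fewer of all genes, were then called in each direction. Averaging all probe sets of a gene gave 4 members higher and 9 lower, where 14% and 16.4% of all genes were.

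**Figure D1:**
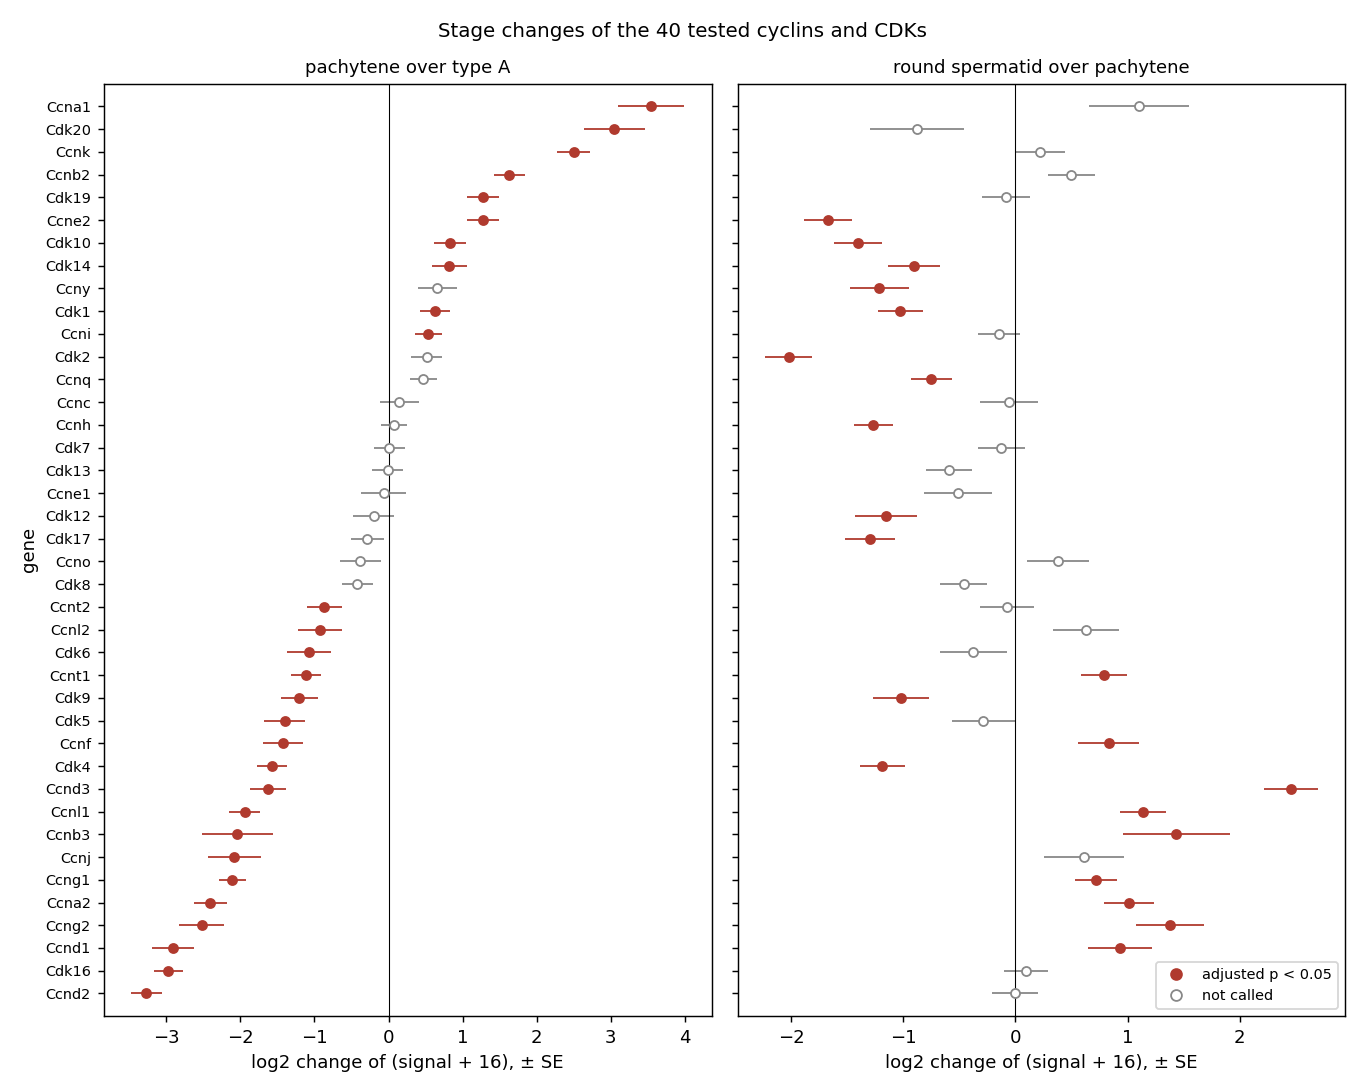
Log2 change of (signal + 16), with its standard error, for the 40 tested cyclins and CDKs, in pachytene over type A cells on the left and in round spermatids over pachytene cells on the right (n = 2 arrays a group). Filled points passed an adjusted p under 0.05. Ccna1 had the largest value on the left, at 3.54, and Ccnd2 the lowest, at -3.27, while Ccnd3 had the largest on the right, at 2.46, and Cdk2 the lowest, at -2.02.

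From spermatogonia to pachytene cells the A cyclins went in opposite directions. Ccna1, the germ cell form of cyclin A that mouse spermatocytes need to enter the first meiotic division, was low in spermatogonia and rose in pachytene cells. Ccna1 read 39.0 and 25.9 in type A, 21.0 and 96.2 in type B, 524.5 and 562 in pachytene cells, and 1139 and 1227 in spermatids. The pachytene and spermatid arrays lay above all 4 spermatogonial arrays, of which all but type B replicate 2 were under the array median. The change was 3.54 ± 0.45 (adjusted p = 3.03e-04) in pachytene against type A and 3.12 ± 0.45 (adjusted p = 7.12e-04) against type B cells. In spermatids against pachytene cells it was 1.10 ± 0.45 (adjusted p = 0.0937), and leaving out either type B array brought the adjusted p to 0.00234. With 1 or 64 added in place of 16, the change against type A was 4.05 or 2.66. Ccna2, the cyclin A of dividing somatic cells, ran the other way from spermatogonia to pachytene cells. Ccna2 read 556 and 618 in type A, 698.5 and 477 in type B, 95 and 100 in pachytene cells, and 208 and 219 in spermatids. Both pachytene arrays and both spermatid arrays lay below every spermatogonial array. The change was -2.41 ± 0.22 (adjusted p = 1.12e-04) in pachytene against type A and -2.39 ± 0.22 (adjusted p = 1.51e-04) against type B cells. It was 1.01 ± 0.22 (adjusted p = 0.00882) in spermatids against pachytene cells, a call lost without pachytene replicate 1 or spermatid replicate 2 (adjusted p = 0.0599 and 0.0602). The other Ccna2 probe set gave 0.37 there, with an adjusted p of 0.474.

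The measured B cyclins differed as well. Ccnb2, a B cyclin that drives division with Cdk1, was higher after spermatogonia. Ccnb2 read 304 and 414 in type A, 418 and 461 in type B, 1109 and 1155 in pachytene cells, and 1638 and 1577 in spermatids. Every later array lay above every spermatogonial one. Its change was 1.63 ± 0.21 (adjusted p = 3.04e-04) in pachytene against type A, 1.33 ± 0.21 (adjusted p = 9.87e-04) against type B, and 0.50 ± 0.21 (adjusted p = 0.0977) in spermatids against pachytene cells. Ccnb3, a B cyclin encoded on chromosome X that is known for its role in meiosis, was lowest in pachytene cells. Ccnb3 read 96.5 and 74.5 in type A, 246 and 64.6 in type B, 10.1 and 7.1 in pachytene cells, and 42.2 and 59.7 in spermatids. The type B replicates differed most, and the pachytene arrays were under the array median. The change was -2.04 ± 0.48 (adjusted p = 0.00585) in pachytene against type A and -2.56 ± 0.48 (adjusted p = 0.00233) against type B cells. It was 1.43 ± 0.48 (adjusted p = 0.0481) in spermatids against pachytene cells, a call that was lost without any 1 of the type A, pachytene or spermatid arrays (adjusted p = 0.0721 to 0.221).

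**Figure D2:**
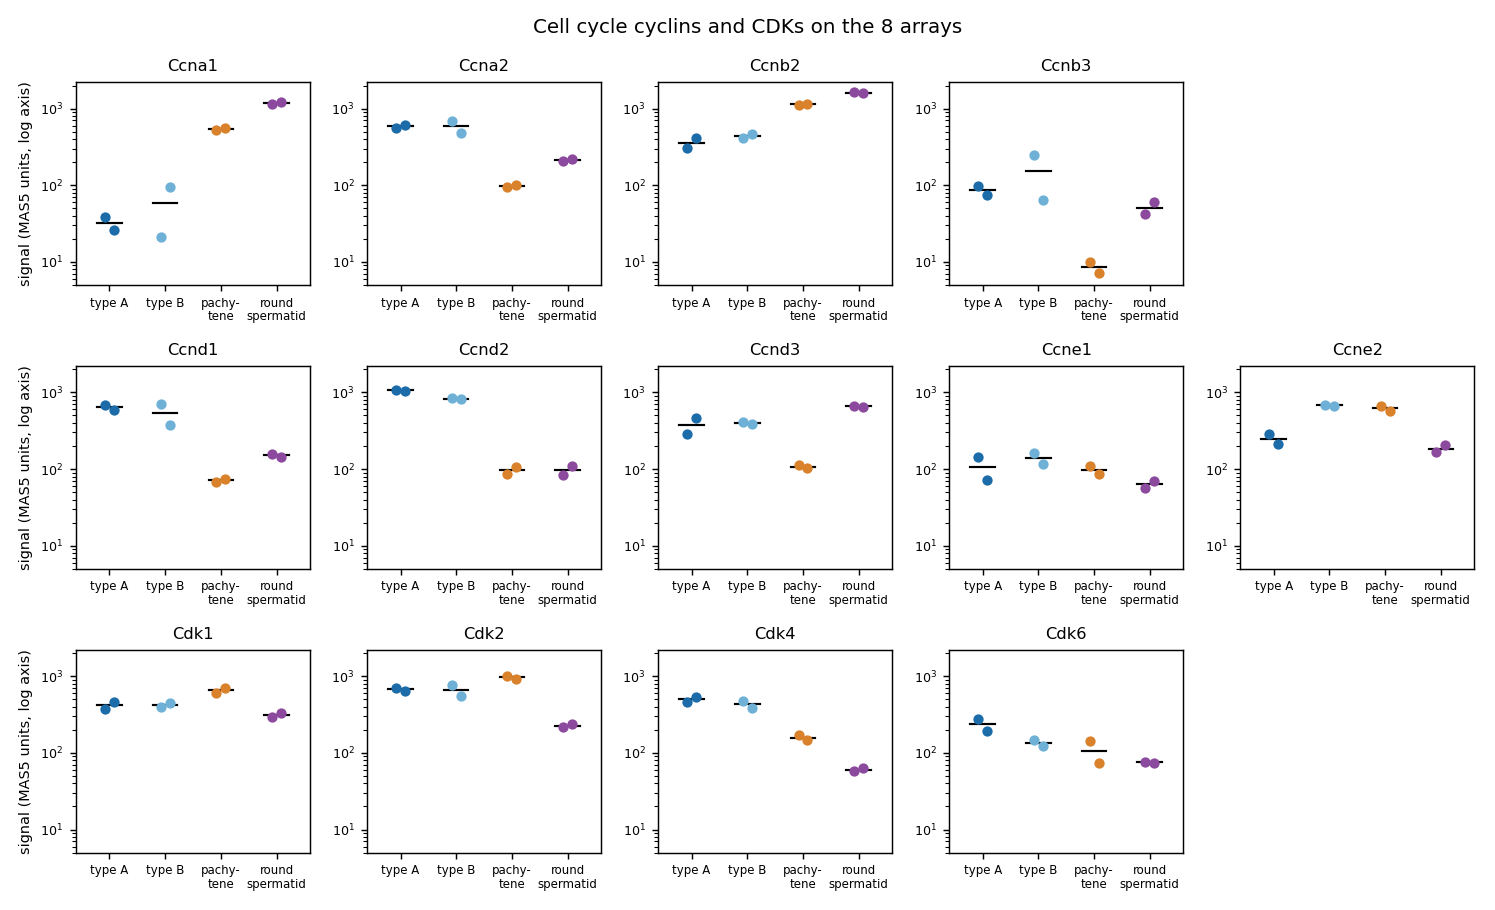
MAS5 signal on a log axis for the A, B, D and E cyclins and for Cdk1, Cdk2, Cdk4 and Cdk6, by stage. Each point is 1 array and each line the mean of 2. Ccna1 and Ccnb2 are high in pachytene cells and spermatids, Ccna2, Ccnd1 and Ccnd2 are high in spermatogonia, and Ccnd3 is lowest in pachytene cells.

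The promoters of Ccna1, Ccnb2 and Cdk1 are shown because these genes were higher in pachytene cells than in spermatogonia, and Cdk1 is the kinase that A and B cyclins bind. They are RefSeq sequences of GRCm38.p6, from 250 bases before to 50 after the start site, each 5′ to 3′ on the strand of the gene. They lie at chr3:55055006-55055305, chr9:70421505-70421804 and chr10:69352863-69353162, all on the minus strand. Capitals mark matches on either strand to the CCAAT box (CCAAT), the CHR element (TTTGAA or TTTAAA), E2F (TTTCGCGC or TTTGGCGC) and the core of the CRE (TGACG).
Ccna1: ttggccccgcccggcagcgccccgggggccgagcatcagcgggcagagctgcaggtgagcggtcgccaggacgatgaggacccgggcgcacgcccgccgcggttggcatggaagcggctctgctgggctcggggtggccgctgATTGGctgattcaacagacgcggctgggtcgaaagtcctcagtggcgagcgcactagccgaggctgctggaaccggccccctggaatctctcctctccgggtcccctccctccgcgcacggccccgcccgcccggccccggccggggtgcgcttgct
Ccnb2: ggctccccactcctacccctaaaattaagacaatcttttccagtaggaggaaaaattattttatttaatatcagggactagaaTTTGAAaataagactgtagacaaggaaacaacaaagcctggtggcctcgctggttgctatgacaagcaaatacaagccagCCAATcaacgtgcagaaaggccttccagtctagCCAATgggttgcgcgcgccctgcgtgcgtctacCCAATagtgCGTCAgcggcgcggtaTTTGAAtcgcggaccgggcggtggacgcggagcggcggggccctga
Cdk1: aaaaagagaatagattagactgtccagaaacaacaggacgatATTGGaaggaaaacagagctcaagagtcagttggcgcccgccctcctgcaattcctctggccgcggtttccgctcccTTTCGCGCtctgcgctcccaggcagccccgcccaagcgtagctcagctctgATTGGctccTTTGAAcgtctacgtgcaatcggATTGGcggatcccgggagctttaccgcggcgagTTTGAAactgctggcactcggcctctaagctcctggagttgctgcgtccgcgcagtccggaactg

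Ccnb2 and Cdk1 each held 3 CCAAT boxes and 2 copies of TTTGAA, and Ccna1 held 1 CCAAT box and no copy of TTTGAA or TTTAAA. In Ccnb2 the 3 boxes began at positions -87, -54 and -21 from the start site. Of 32851 mouse promoters of the same length, 37.4% held CCAAT, 17.9% TTTGAA, 13.2% TTTAAA and 20.8% TGACG. TTTCGCGC stood once in Cdk1, at -131, and in 0.323% of all promoters, and TTTGGCGC, in 0.514% of all promoters, stood in none of these 3. The MYB site AACNG, left in lower case, stood in 80.3% of all promoters. Of 14 cell cycle cyclins and CDKs looked up, 10 matched a promoter by symbol, and Ccna2, Ccnd1, Ccnd2 and Ccne2 did not. Among these 10, CCAAT stood in 6 and TGACG in 5, both including Ccnd3, which was lower in pachytene cells. TTTAAA stood in 3, including Ccnb3 and Ccne1, which were not higher there, and TTTGAA in 2, Ccnb2 and Cdk1. The part of these elements in the changes was not tested. A match is only a match of letters.

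The D cyclins start the cycle in response to growth signals, and all 3 were lower in pachytene cells than in spermatogonia, although Ccnd3 lost its call against type B with ribosomal centring. Ccnd2 read 1081 and 1043 in type A, 834 and 812 in type B, 85.3 and 108 in pachytene cells, and 83.9 and 109 in spermatids. Its pachytene and spermatid arrays overlapped, below all spermatogonial ones. The change was -3.27 ± 0.20 (adjusted p = 7.39e-05) in pachytene against type A, -2.91 ± 0.20 (adjusted p = 7.72e-05) against type B, and 0.00 ± 0.20 (adjusted p = 0.998) in spermatids against pachytene cells. Ccnd1 read 685 and 597 in type A, 705 and 381 in type B, 67.8 and 75.2 in pachytene cells, and 159 and 144 in spermatids. The spermatid arrays lay above the pachytene arrays and below all spermatogonial arrays. Ccnd1 changed by -2.91 ± 0.28 (adjusted p = 1.29e-04) in pachytene against type A and -2.61 ± 0.28 (adjusted p = 2.46e-04) against type B cells. In spermatids against pachytene cells it gave 0.93 ± 0.28 (adjusted p = 0.0345), which was lost without any 1 of the type A, pachytene or spermatid arrays (adjusted p = 0.0516 to 0.152). Ccnd3 was low in pachytene cells only. Ccnd3 read 287 and 463 in type A, 409 and 382 in type B, 111.5 and 103 in pachytene cells, and 667.5 and 655 in spermatids. The spermatid arrays lay above those of all other stages. Its change was -1.63 ± 0.24 (adjusted p = 6.11e-04) in pachytene against type A, -1.74 ± 0.24 (adjusted p = 5.97e-04) against type B, and 2.46 ± 0.24 (adjusted p = 1.91e-04) in spermatids against pachytene cells. A second, dimmer Ccnd3 probe set gave 0.37 in spermatids against pachytene cells (adjusted p = 0.504). The falls of Ccnd1 and Ccnd2 ran along with those of the spermatogonial and of the peritubular and stromal markers given above. The part of either kind of cell in these falls was not tested.

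Of the E cyclins, Ccne2 was high in the middle stages. Ccne2 read 287 and 214 in type A, 694 and 674 in type B, 664 and 579 in pachytene cells, and 166 and 204 in spermatids. Type B and pachytene arrays lay above all type A and spermatid arrays. In type B against type A cells Ccne2 gave 1.41 ± 0.22 (adjusted p = 0.339), and no gene had a lower adjusted p there. It changed by 1.27 ± 0.22 (adjusted p = 0.0012) in pachytene against type A cells and by -1.67 ± 0.22 (adjusted p = 7.19e-04) in spermatids against pachytene cells. Against type B its pachytene value was -0.14 ± 0.22 (adjusted p = 0.607), or 0.93 with ribosomal centring (adjusted p = 0.0145). Ccne1 read 142 and 72.9 in type A, 159.9 and 116 in type B, 109.5 and 85.9 in pachytene cells, and 57.2 and 70.4 in spermatids. Ccne1 passed in no comparison, and its change was -0.07 ± 0.30 (adjusted p = 0.861) in pachytene against type A and -0.51 ± 0.30 (adjusted p = 0.241) in spermatids against pachytene cells.

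Cdk1, the kinase of division, was highest in pachytene cells. Cdk1 read 378 and 464 in type A, 391 and 449 in type B, 609.7 and 705.5 in pachytene cells, and 298 and 330.4 in spermatids. Its change was 0.63 ± 0.20 (adjusted p = 0.0251) in pachytene against type A and 0.63 ± 0.20 (adjusted p = 0.028) against type B cells. The first call was lost without type A replicate 1 or either pachytene array (adjusted p = 0.0561 to 0.143), and the second without type B replicate 1 or either pachytene array (0.0638 to 0.154). Cdk1 changed by -1.03 ± 0.20 (adjusted p = 0.00537) in spermatids against pachytene cells. Cdk2, which mice need for meiosis, dropped in spermatids. Cdk2 read 707 and 642 in type A, 758 and 558 in type B, 1017.5 and 928 in pachytene cells, and 220.2 and 235 in spermatids. The spermatid arrays lay below those of every other stage, and the change against pachytene cells was -2.02 ± 0.21 (adjusted p = 2.48e-04). Pachytene against type A gave 0.52 ± 0.21 (adjusted p = 0.0596), and an adjusted p of 0.0289 without either type B array. Against type B it gave 0.57 ± 0.21 (adjusted p = 0.0463), a call lost without any 1 array other than type B replicate 1 (adjusted p = 0.0599 to 0.194).

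Cdk4 and Cdk6 are the kinases that D cyclins bind. Cdk4 read 461 and 540.5 in type A, 478.5 and 382 in type B, 169 and 147 in pachytene cells, and 57.7 and 63.2 in spermatids. Cdk4 stepped down at both later stages, with no overlap between stages from type B on. It changed by -1.57 ± 0.20 (adjusted p = 3.40e-04) in pachytene against type A, -1.35 ± 0.20 (adjusted p = 8.76e-04) against type B, and -1.18 ± 0.20 (adjusted p = 0.00289) in spermatids against pachytene cells. Cdk6 read 279 and 195 in type A, 146 and 123 in type B, 141.5 and 73.2 in pachytene cells, and 76.0 and 74.7 in spermatids. Cdk6 overlapped between type B and pachytene cells. It changed by -1.07 ± 0.30 (adjusted p = 0.0135) in pachytene against type A cells, a call lost without type A replicate 1 or pachytene replicate 2 (adjusted p = 0.0894 and 0.101). Its value was -0.38 ± 0.30 (adjusted p = 0.381) in spermatids against pachytene cells.

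Whether paired cyclins changed unequally was tested on their log2 difference within each array, by exact permutation of the 8 arrays into 4 pairs, which has 105 outcomes. Levels of different genes are not comparable on an array, so the test bears only on how the difference moved with stage. Each p covers all stages in the test at once, and is not that of a single difference quoted beside it. The pairs with Ccnb1 could not be run, which left 5 pairs, and the smallest p the design allows is 0.00952. The Ccna1 minus Ccna2 difference was 5.95 log2 higher in pachytene than in type A cells and a further 0.09 higher in spermatids, sizes that depend on the added 16 because Ccna1 was dim in type A cells (exact p = 0.0667, adjusted p = 0.0833). Its spermatogonial arrays overlapped, so splits that mix type A with type B arrays scored as high. Ccnb2 minus Ccnb3 was 3.67 higher in pachytene than in type A cells (exact p = 0.0476, adjusted p = 0.0794). Ccnd2 minus Ccnd3 fell by 1.64 in pachytene against type A cells and by 2.46 in spermatids against pachytene cells, with the smallest possible exact p of 0.00952 (adjusted p = 0.0476). That call was lost when both type B arrays were left out, where no p under 0.0667 is possible, and when all probe sets were averaged (exact p = 0.0286, adjusted p = 0.0952). Ccnd1 minus Ccnd3 fell by 1.28 and by 1.52 in the same comparisons (exact p = 0.0381, adjusted p = 0.0794). Ccnd1 minus Ccnd2 was 0.36 and 0.93 higher there (exact p = 0.0857, adjusted p = 0.0857).

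**Figure D3:**
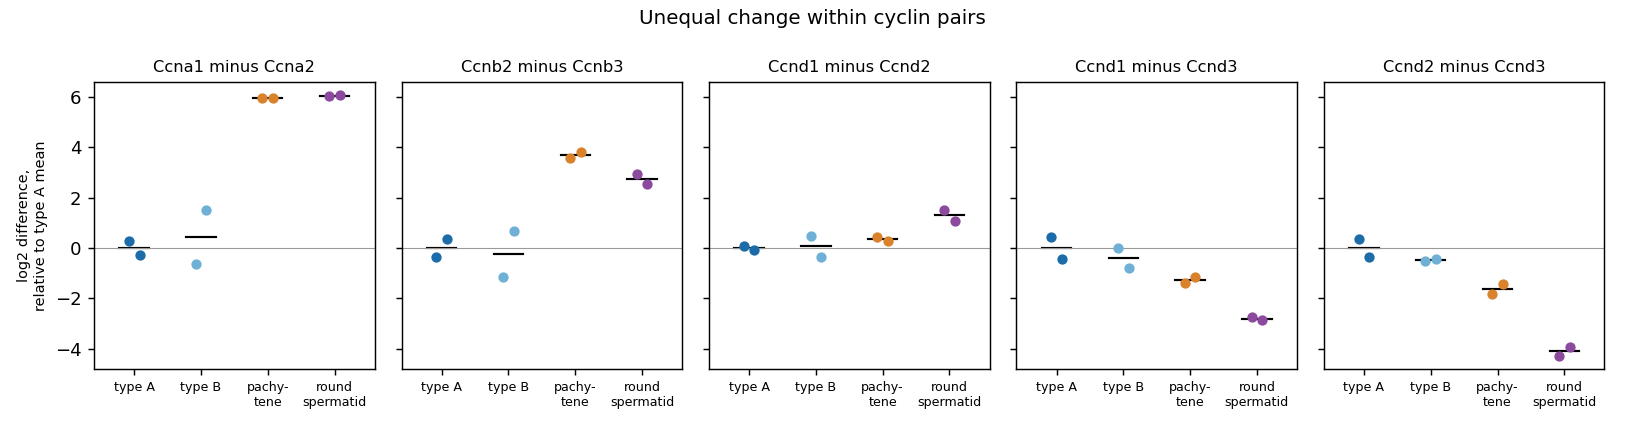
Log2 difference between the 2 genes of a pair within each array, set relative to the mean of the type A arrays, by stage. Each point is 1 array and each line the mean of 2. Ccna1 minus Ccna2 stands 5.95 above type A in pachytene cells, and Ccnd2 minus Ccnd3 falls at each step.

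Cyclins and CDKs of transcription and splicing numbered 2 higher and 5 lower of 13 in pachytene against type A cells (27.1% and 35.4% of all genes), and 2 higher and 3 lower in spermatids against pachytene cells (15.7% and 19.0% of all genes). Ccnk, which activates the polymerase kinases Cdk12 and Cdk13, rose in pachytene cells. Ccnk read 167 and 143 in type A, 165 and 199 in type B, 954 and 941.5 in pachytene cells, and 947 and 1296 in spermatids. All later arrays lay above all spermatogonial ones. Ccnk changed by 2.50 ± 0.22 (adjusted p = 9.98e-05) in pachytene against type A and 2.29 ± 0.22 (adjusted p = 1.69e-04) against type B cells, and gave 0.22 ± 0.22 (adjusted p = 0.491) in spermatids against pachytene cells. Its kinase Cdk12 gave -0.20 ± 0.27 (adjusted p = 0.547) and Cdk13 -0.01 ± 0.21 (adjusted p = 0.968) in pachytene against type A cells. Of 6 tested probe sets of Cdk12, however, 4 dimmer ones were lower there, at -0.81 to -1.77 (adjusted p = 0.0117 to 0.0407). Cdk12 changed by -1.15 ± 0.27 (adjusted p = 0.013) in spermatids against pachytene cells, and lost that call without pachytene replicate 1 or either spermatid array (adjusted p = 0.0618 to 0.0958). Cdk13 gave -0.59 ± 0.21 (adjusted p = 0.0567) there, with an adjusted p of 0.0377 without either type B array.

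Cdk19, a kinase of the Mediator complex, was higher in pachytene cells. Cdk19 read 155 and 119 in type A, 113 and 149.8 in type B, 347 and 358 in pachytene cells, and 339.7 and 323 in spermatids. Its change was 1.28 ± 0.21 (adjusted p = 0.0011) in pachytene against type A and 1.33 ± 0.21 (adjusted p = 0.00116) against type B cells. In spermatids against pachytene cells it gave -0.09 ± 0.21 (adjusted p = 0.803). The other probe set of Cdk19, nearly as bright, read 241 and 156 in type A and 109 and 165 in type B. It read 446 and 375 in pachytene cells, and 184 and 156 in spermatids. That probe set was also called higher in pachytene cells, but lower in spermatids against pachytene cells. The Cdk19 paralog Cdk8 and their partner Ccnc did not pass, at -0.42 ± 0.21 (adjusted p = 0.111) and 0.15 ± 0.26 (adjusted p = 0.645) in pachytene against type A cells. The Cdk7 kinase and Ccnh form the complex that activates other CDKs. Ccnh read 852 and 844 in type A, 1159 and 1179 in type B, 920.1 and 868 in pachytene cells, and 362 and 363 in spermatids. The spermatid arrays lay below all others, and Ccnh changed by -1.27 ± 0.17 (adjusted p = 9.61e-04) against pachytene cells. Cdk7 gave -0.13 ± 0.21 (adjusted p = 0.698) there, and its other probe set -0.76 (adjusted p = 0.0337).

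The elongation kinase Cdk9 and its partners Ccnt1 and Ccnt2 fell in pachytene against type A cells, with changes of -1.20 ± 0.25 (adjusted p = 0.00322), -1.11 ± 0.21 (adjusted p = 0.0018) and -0.86 ± 0.24 (adjusted p = 0.0136). The last call was lost without type A replicate 1 or either pachytene array (adjusted p = 0.0546 to 0.0673). Cdk9, Ccnt1 and Ccnt2 each lost the call against type A with ribosomal centring. Fitted separately, 1 of 2 tested probe sets of Cdk9 was lower against type A. For Ccnt1 it was 2 of 2, and for Ccnt2 3 of 5. Against type B, Ccnt2 gave -0.59 ± 0.24 (adjusted p = 0.0652). Ccnt1 gave 0.79 ± 0.21 (adjusted p = 0.0189) and Cdk9 -1.02 ± 0.25 (adjusted p = 0.0142) in spermatids against pachytene cells. Ccnt1 lost its call without any 1 of the 4 arrays (adjusted p = 0.056 to 0.126), and Cdk9 without pachytene replicate 1 or either spermatid array (0.0674 to 0.111). Ccnl1, a cyclin tied to splicing, was lowest in pachytene cells. Ccnl1 read 1173 and 1078 in type A, 785 and 1034 in type B, 304 and 259.9 in pachytene cells, and 648 and 629 in spermatids. Its spermatid arrays lay between the pachytene and the spermatogonial arrays. Ccnl1 changed by -1.94 ± 0.21 (adjusted p = 1.67e-04) in pachytene against type A, -1.63 ± 0.21 (adjusted p = 4.35e-04) against type B, and 1.14 ± 0.21 (adjusted p = 0.00379) in spermatids against pachytene cells. Ccnl2 gave -0.92 ± 0.30 (adjusted p = 0.0254) in pachytene against type A cells, a call lost without either type A array or pachytene replicate 2 (adjusted p = 0.0506 to 0.163).

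Among other cyclins, 1 rose and 4 fell of 8 in pachytene against type A cells, beside 27.1% and 35.4% of all genes. Ccng1, a target of p53, and Ccng2, known from cells that leave the cycle, both fell. Ccng1 read 285 and 260.0 in type A, 409 and 373 in type B, 48.6 and 53.4 in pachytene cells, and 86.4 and 103 in spermatids. Its change was -2.11 ± 0.19 (adjusted p = 1.02e-04) in pachytene against type A and -2.60 ± 0.19 (adjusted p = 8.30e-05) against type B cells. Ccng2 read 292 and 416 in type A, 466 and 446 in type B, 66.4 and 32.9 in pachytene cells, and 175 and 126.5 in spermatids. Its change was -2.52 ± 0.30 (adjusted p = 2.44e-04) in pachytene against type A and -2.89 ± 0.30 (adjusted p = 2.12e-04) against type B cells. For both genes the spermatogonial arrays lay above all later ones. In spermatids against pachytene cells Ccng1 gave 0.72 ± 0.19 (adjusted p = 0.0187) and Ccng2 1.38 ± 0.30 (adjusted p = 0.00882). These calls were lost for Ccng1 without either pachytene array or spermatid replicate 2 (adjusted p = 0.0734 to 0.12), and for Ccng2 without pachytene replicate 2 or spermatid replicate 1 (0.0656 and 0.0695).

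Ccnf, the F-box cyclin that marks proteins for destruction, changed by -1.43 ± 0.27 (adjusted p = 0.00215) and Ccnj by -2.08 ± 0.35 (adjusted p = 0.00122) in pachytene against type A cells. The Ccnj signals of 13.9 and 14.9 in pachytene cells were under the array median, and its change was -2.88 with 1 added in place of 16. Ccnf gave 0.83 ± 0.27 (adjusted p = 0.0453) in spermatids against pachytene cells, which was lost without any 1 of the type A, pachytene or spermatid arrays (adjusted p = 0.0558 to 0.249). Ccni rose by 0.54 ± 0.19 (adjusted p = 0.0328) in pachytene against type A cells, a call lost without any 1 of these 4 arrays (adjusted p = 0.0688 to 0.137). Ccno, known from cells that make many cilia, passed in no comparison, at -0.38 ± 0.28 (adjusted p = 0.262) in pachytene against type A cells. Ccny, a membrane cyclin that binds Cdk14 and Cdk16, differed between probe sets. Ccny read 291.5 and 466 in type A, 414 and 356 in type B, 662 and 527 in pachytene cells, and 270.2 and 223 in spermatids. It gave 0.66 ± 0.26 (adjusted p = 0.0583) in pachytene against type A and -1.21 ± 0.26 (adjusted p = 0.00845) in spermatids against pachytene cells. The second call was lost without pachytene replicate 1 or spermatid replicate 2 (adjusted p = 0.0685 and 0.0691). The first passed without type A replicate 2 or either type B array (0.0192 to 0.0463). The next brightest probe set of Ccny read 370.5 and 382 in type A, 436 and 322 in type B, 299.6 and 261 in pachytene cells, and 319 and 281 in spermatids. That probe set gave -0.41 in pachytene against type A cells (adjusted p = 0.14), and a dimmer one -1.68 (adjusted p = 0.0327). Ccnq, the partner of Cdk10, gave -0.75 ± 0.18 (adjusted p = 0.0142) in spermatids against pachytene cells, lost without either pachytene array or spermatid replicate 2 (adjusted p = 0.0678 to 0.0962).

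Of the other CDKs, 3 rose and 2 fell of 6 tested in pachytene against type A cells, beside 27.1% and 35.4% of all genes. In spermatids against pachytene cells 3 of them fell, beside 19.0% of all genes. Cdk20, a kinase tied to cilia, rose in pachytene cells. Cdk20 read 47.2 and 49.1 in type A, 31.9 and 120.3 in type B, 478.5 and 553 in pachytene cells, and 269 and 277 in spermatids. The type B replicates differed, with replicate 2 the higher. Cdk20 changed by 3.05 ± 0.42 (adjusted p = 4.31e-04) in pachytene against type A and 2.71 ± 0.42 (adjusted p = 9.66e-04) against type B cells. In spermatids against pachytene cells it gave -0.88 ± 0.42 (adjusted p = 0.144), or an adjusted p of 0.0043 without either type B array. Cdk16, which is encoded on chromosome X and which mice need to make normal sperm, fell. Cdk16 read 1686 and 1368 in type A, 1329.6 and 1229 in type B, 181 and 178.5 in pachytene cells, and 208 and 179 in spermatids. Its later arrays lay far below the spermatogonial ones. Cdk16 gave -2.97 ± 0.20 (adjusted p = 7.39e-05) in pachytene against type A, -2.73 ± 0.20 (adjusted p = 8.30e-05) against type B, and 0.09 ± 0.20 (adjusted p = 0.763) in spermatids against pachytene cells.

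Cdk10 peaked in pachytene cells. Cdk10 read 264 and 195 in type A, 211 and 193 in type B, 387 and 447 in pachytene cells, and 137 and 158 in spermatids. It changed by 0.99 ± 0.21 (adjusted p = 0.00482) in pachytene against type B and -1.40 ± 0.21 (adjusted p = 0.00163) in spermatids against pachytene cells. Against type A it gave 0.83 ± 0.21 (adjusted p = 0.00931), a call lost without type A replicate 2 or pachytene replicate 2 (adjusted p = 0.0614 and 0.0667). Cdk17, a relative of Cdk16, dropped in spermatids. Cdk17 read 284 and 317 in type A, 261 and 203 in type B, 253 and 234 in pachytene cells, and 107 and 75 in spermatids. The spermatid arrays lay below all others, at -1.29 ± 0.22 (adjusted p = 0.00306) against pachytene cells. Cdk5, best known from neurons, changed by -1.40 ± 0.28 (adjusted p = 0.00266) in pachytene against type A cells. Cdk3 had signals of 9.2 to 29.8 and Cdk18 of 7.2 to 32.6 on the 8 arrays, too low to be tested.

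Probe sets of 1 gene did not always move together. Of 25 members with several tested probe sets, all had the same sign for 20 in pachytene against type A, 19 in pachytene against type B, 16 in spermatids against pachytene and 18 in type B against type A cells. Fitting each probe set on its own was chosen after seeing the data. For Cdk16, a second probe set was higher in spermatids than in pachytene cells. The second probe set of Cdk16 read 556 and 621 in type A, 527 and 389 in type B, 123 and 143 in pachytene cells, and 631 and 780.4 in spermatids. Its change was 2.27 in spermatids against pachytene cells (adjusted p = 2.90e-04). Cdk14, the other kinase that Ccny binds, had opposite calls there. In pachytene against type A cells its brighter probe set gave 0.82 ± 0.23 (adjusted p = 0.0149), a call lost without type A replicate 1 or pachytene replicate 2 (adjusted p = 0.0865 and 0.0932). The brighter probe set of Cdk14 read 116 and 158 in type A, 119 and 162 in type B, 236 and 268 in pachytene cells, and 139 and 116 in spermatids. The dimmest probe set of Cdk14 read 7.0 and 3.9 in type A, 6.7 and 2.9 in type B, 15.9 and 7.3 in pachytene cells, and 58.4 and 55.9 in spermatids. The first changed by -0.90 ± 0.23 (adjusted p = 0.0182) in spermatids against pachytene cells and the second by 1.42 (adjusted p = 0.0025). The second was under the array median in pachytene cells, so its size depends on the added 16. The call of the first was lost without any 1 of these 4 arrays (adjusted p = 0.0525 to 0.118). For Ccng1, 2 dimmer probe sets gave -0.29 and -0.06 in spermatids against pachytene cells, and for Ccny 2 gave 0.09 and 0.21. A Cdk5 probe set gave 0.30 in pachytene against type B cells (adjusted p = 0.501), where the brighter one gave -1.11 ± 0.28 (adjusted p = 0.00992), itself lost without pachytene replicate 1 (0.0768).

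**Figure D4:**
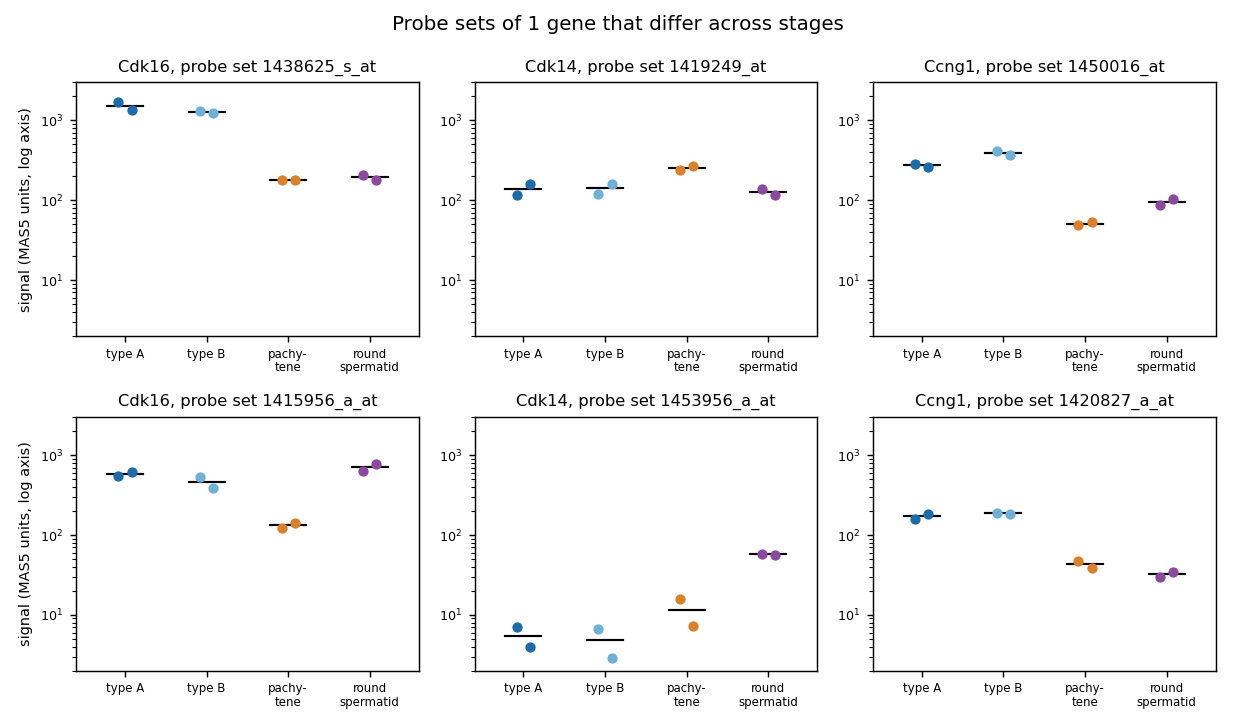
MAS5 signal on a log axis by stage for 2 probe sets each of Cdk16, Cdk14 and Ccng1. Each point is 1 array and each line the mean of 2. The lower Cdk16 probe set reads 631 and 780.4 in spermatids, where the upper one reads 208 and 179, and the lower Cdk14 probe set is highest in spermatids.

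Between type B and type A spermatogonia limma called 0 members higher and 0 lower, as it did over all genes (0% of 14145 in each direction). At an unadjusted p under 0.05 it gave 3 members higher and 1 lower, beside 786 and 596 of all genes. The 3 were Ccne2 at 1.41, Ccng1 at 0.50 ± 0.19 (adjusted p = 0.493) and Ccnh at 0.46 ± 0.17 (adjusted p = 0.493), and the 1 was Cdk6 at -0.74 ± 0.30 (adjusted p = 0.504). Leaving out type B replicate 1 leaves 1 type B array, the one that read high for pachytene markers, which is then assumed to vary like the arrays of the other stages. In that fit 8.09% of all genes were higher and 1.4% lower, and Ccne2 passed at 1.39 (adjusted p = 0.0112), as did Ccna1 at 1.22 (0.0148) and Cdk20 at 1.09 (0.0155). For Ccna1 and Cdk20 the higher value was that of type B replicate 2, the array that also read high for pachytene and spermatid markers. The part of RNA from later cells there was not tested. For Ccne2 both type B arrays lay above both type A arrays.

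Regulators of the CDKs were listed apart from the members: inhibitors, activators and adaptors, inhibitory kinases, pocket proteins with E2F factors, and factors of cyclin destruction. Of 39 tested, 12 were higher and 20 lower in pachytene against type A cells, where 27.1% and 35.4% of all genes were. Against type B the counts were 10 and 19, where 25.4% and 32.3% of all genes were, and in spermatids against pachytene cells 8 and 8, where 15.7% and 19.0% were. Of each group, the called gene with the largest change in pachytene against type A cells is given, and Cks2 besides. Spdya, an activator that binds Cdk2 in place of a cyclin, gave 3.42 ± 0.28 (adjusted p = 8.66e-05) in pachytene against type A cells. Spdya read 102.5 and 62.3 in type A, 263 and 425 in type B, 999.7 and 1032 in pachytene cells, and 582 and 579.5 in spermatids. Cks2, a small CDK-binding protein that mice need for meiosis, gave 1.28 ± 0.23 (adjusted p = 0.00165), and -2.40 ± 0.23 (adjusted p = 1.85e-04) in spermatids against pachytene cells. Cks2 read 1165 and 1052.5 in type A, 1140.0 and 1589 in type B, 2494 and 2966 in pachytene cells, and 561 and 453 in spermatids. Both genes were highest in pachytene cells, while Cks1b, listed beside Cks2, read 1370 and 1330.5 in type A and 260 and 202 in pachytene cells. Cdkn3, a phosphatase of CDKs, gave 2.67 ± 0.29 (adjusted p = 1.82e-04) and Pkmyt1, an inhibitory kinase of Cdk1, gave 2.07 ± 0.26 (adjusted p = 2.81e-04) in pachytene against type A cells. Wee1, the other inhibitory kinase listed, was called lower in that comparison, at -1.21. E2f1, a factor that switches on cell cycle genes, gave -2.10 ± 0.26 (adjusted p = 2.62e-04), and Fbxo5, an inhibitor of cyclin destruction, gave -2.27 ± 0.33 (adjusted p = 6.05e-04).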

How the data were processed

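The deposited values are MAS5 signal intensities, 1 per probe set and array, which the authors made with MAS5, a tool named in the submitters' processing notes. No source used here gives its version. Values are on a linear scale, and the mean after trimming 2% at each end is the same on all 8 arrays. The number of arrays, 2 a stage, limits the precision.

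Probe sets were named from GEO's platform annotation with symbols updated through RefSeq gene identifiers. Of 34945 probe sets with 1 gene, 34741 matched and 204 kept the file's name. A further 932 probe sets had several genes and 9160 had none. For each gene the probe set of highest mean log2(signal + 16) was used, and tests were run where it exceeded the array median on at least 2 of 8 arrays. limma 3.58.1 in R 4.3.3 fitted 1 mean per stage to all 8 arrays, without a covariate, with p-values adjusted by the Benjamini-Hochberg method within each comparison. The fit was tested on simulated data. Pairs of cyclins were compared by an exact permutation test, one-sided for large differences between stages, adjusted over 5 pairs. Protein sequences were not used here.

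Signals on every array are given for the A, B, D and E cyclins, for Cdk1, Cdk2, Cdk4 and Cdk6, and for the 6 called members with the largest change in each direction of each comparison. Partners were listed by role. The members, lists and tests were chosen with earlier results of these data known. The p-values measure the spread between preparations, which limma pooled for each gene over all stages.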

Additional observations from a re-analysis of the deposited data

How the results depend on the processing

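The 20 alternatives covered pseudocounts, filters on low signal, array scaling, averaging of probe sets, a replicate block, the spread estimate and left-out arrays. For single members, 2785 results kept direction and call, 140 lost a call, 73 gained one and 9 with a call in either fit reversed. A further 105 that passed in neither fit changed sign. With ribosomal centring, 18 members were higher and 7 lower in pachytene against type B (56.9% and 10.1% of all genes). Against type A, 17 were higher and 10 lower (46.1% and 15.4% of all genes). In spermatids against pachytene cells ribosomal centring left 5 higher (13.8% of all genes). Averaging probe sets left 4 higher there (14% of all genes). Quantile normalization moved the median of all genes by 0.14 against type B and 0.20 against type A, and centring on the 75th percentile by 0.32 and 0.38.

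Leaving out single arrays gave 6 to 13 higher and 15 to 18 lower in pachytene against type A, 6 to 8 higher and 13 to 19 lower against type B, 3 to 11 higher and 7 to 14 lower in spermatids against pachytene, and 0 to 3 higher and 0 lower in type B against type A cells. The calls kept without every single array were 21 of 28 in pachytene against type A, 18 of 24 against type B, and 9 of 21 in spermatids against pachytene cells.

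Same-numbered arrays correlated at -0.178 to 0.173 in their deviations from the stage means. Whether the replicate numbers pair the samples cannot be told from this or from the labels. With the replicate block, members higher and lower numbered 9 and 15 in pachytene against type B (25.2% and 32.4% of all genes). Against type A they numbered 10 and 18 (27.2% and 35.5% of all genes). In spermatids against pachytene cells they numbered 8 and 13 (15.6% and 18.8% of all genes). In type B against type A cells they numbered 0 and 0 (0% and 0% of all genes).

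Under ribosomal centring, values against type B turned to 0.93 for Ccne2, 0.25 for Ccnf, 0.68 for Ccnh, 0.13 for Ccnt1, 0.96 for Cdk12, 0.89 for Cdk7 and 0.26 for Cdk9, and Cdk13 to 0.78 against type A. Averaged probe sets gave 0.074 for Cdk14 in spermatids against pachytene cells. Other probe sets, an alternative chosen after seeing the data, gave -1.68 for Ccny against type A, and -1.19 for Cdk13 and 0.30 for Cdk5 against type B. In spermatids against pachytene cells they gave 1.47 for Ccnc, -0.29 and -0.058 for Ccng1, 0.094 and 0.21 for Ccny, 0.11 for Cdk12 and 1.42 for Cdk14. The cause was not tested.

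With a pseudocount of 1, Ccnb2 with Ccnb3 and Ccnd1 with Ccnd3 each reached an exact permutation p of 0.0286 (adjusted p = 0.0476). Ccnd2 with Ccnd3 gave an exact p of 0.0286 (adjusted p = 0.0952) with averaged probe sets, and 0.0667, the smallest possible, without both type B arrays.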
